A study of Mus musculus with 3 samples.

Results

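miR-103 and miR-107 form a small vertebrate miRNA family whose genes lie inside introns of the pantothenate kinase (Pank) genes, which encode the enzymes of the first step of coenzyme A synthesis. A miRNA hairpin is cut by Dicer into 2 arms, and the seed near the 5′ end of the retained arm pairs with target mRNAs. miR-103 and miR-107 have the same seed and are known for acting on Dicer itself and on caveolin-1 in insulin signalling. Their abundance was examined here in extracellular vesicles (EVs) of the neonatal mouse testis.

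The members were all mature and hairpin entries named miR-103 or miR-107 of either arm, which gave 4 identifiers of the 805 with such an entry, and 7 entries of 2780 for small RNAs of all kinds. These were mature and hairpin entries of mmu-miR-103-3p, mmu-miR-107-3p and miR-107-5p, and a mature entry of miR-103-2-5p. Each of the 3 libraries held 5 of the 7 entries, though not the same ones, while miR-103-1-5p had no entry.

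The libraries were biological replicates by their labels. They came from a single condition, EVs from testes of C57/BL6 males at PND7. The EVs of 10 mice were pooled per preparation, and there was no control group. For small RNA sequencing, the paper's statistics section gives fewer sets than there are libraries here, as independent cell cultures per treatment group. This difference was not resolved. The EVs were taken from the supernatant of digested whole testis, so they can come from any cell of the organ, and fewer vesicles of a source cannot be told apart from less of a miRNA per vesicle. The vesicles were exposed to proteinase K, PMSF and RNase A before RNA extraction. The titles of all samples also carry the word treated, without saying what it refers to. The paper's description, EVs isolated from PND7 testis, was followed here. The libraries had 25716952 to 27939308 clean reads, of which 870967 to 1005836 were counted on mature and 493345 to 612122 on hairpin entries. No library had been deposited again under another name, since every pair differed by a chi-square of 96.6 or more per degree of freedom, where counting error alone gives about 1 (272 mature miRNAs, none under 10 counts).

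Both 3p members were matched to RefSeq (GRCm38.p6). They are shown first with the seed, bases 2 to 8, in capitals, and then with the differing base in capitals, since that base alone tells the paralogs apart.
miR-103-3p: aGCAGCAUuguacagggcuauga
miR-107-3p: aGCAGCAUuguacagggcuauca
miR-103-3p: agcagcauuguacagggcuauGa
miR-107-3p: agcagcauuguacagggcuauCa

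Counted from 1 at the 5′ end of miR-103-3p, the difference is G22C in 23 bases, the 2nd base from the 3′ end. A read that lies within the 3p arm and ends before base 22 therefore carries nothing that separates them. No other of the 1679 mature mouse sequences in the table had the seed GCAGCAU. The 5p arms, which share the seed GCUUCUU, differ by G1A from miR-103-1-5p to miR-103-2-5p and by C16U from miR-103-2-5p to miR-107-5p. They are printed with the seed in capitals because only 2 of the 3 were counted.
miR-103-1-5p: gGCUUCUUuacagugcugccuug
miR-103-2-5p: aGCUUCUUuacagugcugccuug
miR-107-5p: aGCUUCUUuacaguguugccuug

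The precursors show why miR-103-3p counts cannot be divided between genes, as the 3p arm (capitals) is the same in both miR-103 precursors.
Mir103-1: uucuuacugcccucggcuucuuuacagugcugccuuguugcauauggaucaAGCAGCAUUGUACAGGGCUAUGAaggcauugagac
Mir103-2: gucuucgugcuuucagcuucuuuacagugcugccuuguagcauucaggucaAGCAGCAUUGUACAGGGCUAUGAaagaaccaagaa
Mir107: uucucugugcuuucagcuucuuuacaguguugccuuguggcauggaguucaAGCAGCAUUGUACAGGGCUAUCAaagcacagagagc

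Mir103-1 lies at chr11:35782396-35782481 on the plus strand, in an intron of Pank3. Mir103-2 lies at chr2:131288052-131288137 on the plus strand, in an intron of Pank2. Mir107 lies at chr19:34820687-34820773 on the minus strand, in an intron of Pank1. In the GENCODE vM21 annotation each miRNA had the strand of its host, and no further annotated gene overlapped it. The intron is the 5th of 6 in Pank3-201 and in Pank1-201 and the 7th of 8 in Pank2-202. Over a global alignment the precursors were 80.2% to 83.9% identical. The longest run common to all of them was 24 bases, ucaAGCAGCAUUGUACAGGGCUAU, in which capitals mark the first 21 bases of the 3p arm, and the miR-103 precursors shared 27 bases around it.

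miR-103-3p was the most abundant member in every library and in both types of entry. Its mature entry had 148, 126 and 106 counts in replicates 1, 2 and 3, or 170, 125 and 110 CPM (counts scaled to a total of 1000000 mature counts per library), with a mean of 135 ± 31.3 CPM (SD, n = 3). Replicate 1 was the highest, and its exact 95% interval of 144 to 200 CPM did not overlap that of replicate 3, 89.8 to 133 CPM, while replicate 2 overlapped both. These intervals cover counting error only.

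By mean CPM, miR-103-3p ranked 158th of 604 mature miRNAs, and between 157th and 170th in single libraries. Its neighbours in this order were miR-28a-5p above, with 142 ± 23.7 CPM, and miR-350-3p below, with 135 ± 41.0 CPM (SD, n = 3 each). Neither differed from it by more than the SD. The hairpin entry of miR-103-3p held more reads than the mature entry, with 662, 535 and 594 counts, or 1342, 874 and 1029 CPM of the hairpin counts. Its mean was 1081 ± 238 CPM (SD, n = 3), and it ranked 91st of 743 hairpin entries.

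miR-107-3p, the product of the Pank1 intron, was counted far less often and unevenly. Its mature entry had 29 counts in replicate 1 and 19 in replicate 3, or 33.3 and 19.7 CPM. In replicate 2 it had 0 of 1005836 mature counts, for which a floor of 3 counts is 2.98 CPM. The hairpin entry ran in the opposite order, with 26, 90 and 56 counts, or 52.7, 147 and 97.0 CPM of the hairpin counts. Replicate 2, without a mature count, was thus the highest in hairpin counts.

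**Figure D1:**
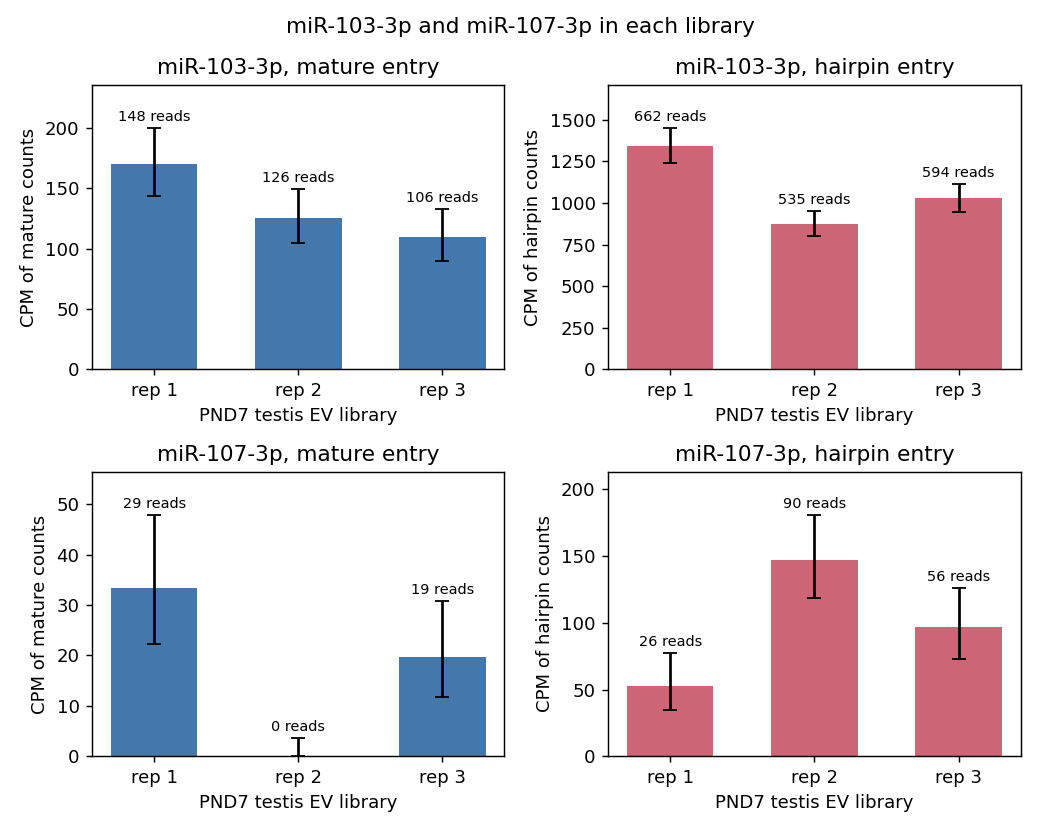
CPM of miR-103-3p (upper panels) and miR-107-3p (lower panels) in the mature (blue) and hairpin (red) entries of the 3 libraries, each entry scaled to the counts of its own type. Bars are single libraries, lines are exact 95% intervals for counting error and the labels give the reads: miR-107-3p has no mature read in replicate 2, where its hairpin entry is the highest, with 90 reads.

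With both types summed, this unevenness was smaller. miR-107-3p had 55, 90 and 75 counts, or 40.3, 55.6 and 48.6 CPM of mature plus hairpin counts, with a mean of 48.2 ± 7.66 CPM (SD, n = 3). The highest library exceeded the lowest 1.38-fold, against 2.79-fold for the hairpin entry alone. miR-103-3p summed to 810, 661 and 700 counts, with a mean of 485 ± 96.6 CPM (SD, n = 3) and a 1.45-fold range. For comparison, the median range over the 395 identifiers with at least 10 summed counts in every library was 1.81-fold. In summed counts replicate 1 was the highest for miR-103-3p and the lowest for miR-107-3p.

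All members together made up 0.0206%, 0.0145% and 0.0130% of the mature counts in replicates 1, 2 and 3, from 179, 146 and 126 counts, with a mean of 0.0160% ± 0.00398 (SD, n = 3). Among hairpin counts they made up 0.139%, 0.106% and 0.113%, a mean of 0.119% ± 0.0178. Replicate 1 was the highest in both types, and its hairpin interval of 0.129% to 0.150% lay above those of the other libraries.

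In the order of hairpin entries, miR-103-3p stood next to miR-499-5p, with 1007 ± 262 CPM, and miR-107-3p, 275th of 743, stood between miR-495-3p, with 99.5 ± 25.3 CPM, and miR-450b-3p, with 98.4 ± 73.4 CPM (SD, n = 3 each). These neighbours differed from the members by less than the SD. In the mature order miR-107-3p, with 17.7 ± 16.7 CPM, was 352nd of 604, and in summed counts the ranks were 111 and 321 of 805.

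Whether the paralogs were carried in a fixed proportion was asked from the share of miR-107-3p among the counts of both 3p members. Among mature entries it was 16.4% in replicate 1 (exact 95% interval 11.3% to 22.7%) and 15.2% in replicate 3 (9.41% to 22.7%). In replicate 2 it was 0 of 126 counts (0% to 2.89%). Among hairpin entries it was 3.78% (2.48% to 5.49%), 14.4% (11.7% to 17.4%) and 8.62% (6.57% to 11.0%) in replicates 1, 2 and 3. The intervals of replicates 1 and 3 overlapped for mature and did not overlap for hairpin entries.

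With types summed, the share was 6.36%, 12.0% and 9.68% in replicates 1, 2 and 3, with a mean of 9.34% ± 2.83 (SD, n = 3). The intervals of replicates 1 and 2, 4.83% to 8.20% and 9.75% to 14.5%, did not overlap. A share of the miR-107 gene cannot be read from these values. Reads that lie within the 3p arm and end before the differing base could have been given to either paralog.

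**Figure D2:**
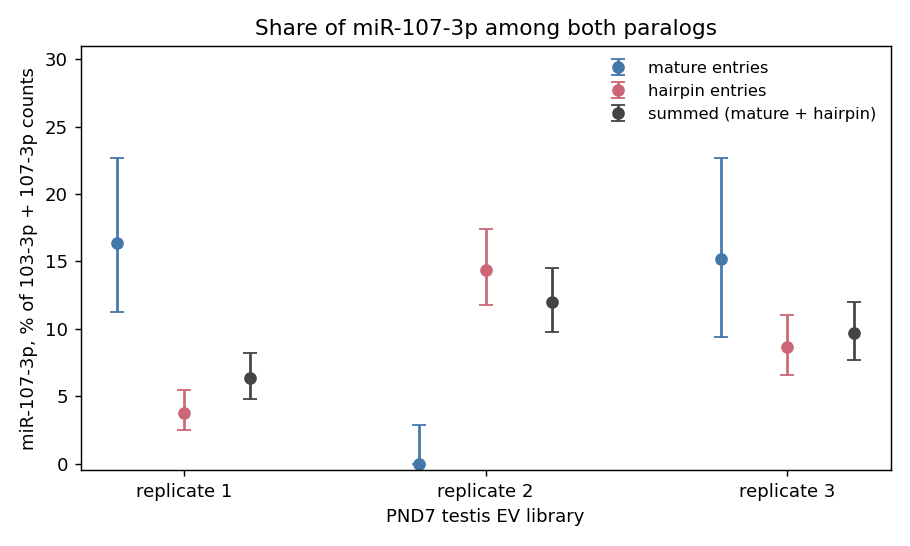
Percentage of miR-107-3p among the counts of miR-103-3p and miR-107-3p in each library, for mature (blue), hairpin (red) and summed (black) counts, with exact 95% intervals for counting error. The mature share is 0 in replicate 2 and 16.4% and 15.2% in the others, while the hairpin share is highest in replicate 2.

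miR-103-3p exceeded miR-107-3p within each library under every way of counting. The ratio in mature entries was 5.10 in replicate 1 and 5.58 in replicate 3. In replicate 2 it was 42 when the 0 of miR-107-3p is set to the floor of 3 counts per library. This 42 is no strict lower bound, since the 126 counts of miR-103-3p carry counting error too. The mean log2 ratio with that floor was 3.41, above 0 in 3 of 3 libraries (two-sided exact permutation test by sign flips, p = 0.25, which with 3 libraries is the lowest value possible). It was 2.42 without replicate 2. In summed counts the ratio was 14.7, 7.34 and 9.33, a mean log2 ratio of 3.33 ± 0.51 (SD, n = 3). Over the 5 within-library ratios tested here, an unadjusted p of 0.25 became 0.3125 after Benjamini-Hochberg adjustment, so none could pass 0.05.

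The catalogues set reads on the mature sequence apart from reads on the hairpin, and the second type is not defined in the sources used here. Mature counts made up 18.3%, 19.1% and 15.1% of the mature plus hairpin counts of miR-103-3p, with a mean of 17.5% ± 2.07 (SD, n = 3), and the intervals of the libraries overlapped. The mean log2 ratio of mature to hairpin counts was -2.24 ± 0.21 (SD, n = 3), below 0 in every library (two-sided exact permutation test by sign flips, p = 0.25, adjusted p = 0.3125). Of 347 known miRNAs with at least 10 summed counts in every library, 116, or 33.4%, had more hairpin than mature counts in all libraries, miR-103-3p among them, and 137, or 39.5%, had more mature counts. Neither held for miR-107-3p. Of the same miRNAs, 57 had a lower mean mature share than miR-103-3p. The median mature share over them was 51.7%.

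For miR-107-3p the balance changed between libraries. Mature counts made up 52.7% (exact 95% interval 38.8% to 66.3%) in replicate 1 and 25.3% (15.99% to 36.7%) in replicate 3. In replicate 2 they were 0 of 90 (0% to 4.02%). None of these intervals overlapped. In replicate 1 the share was also above that of miR-103-3p in the same library, 15.7% to 21.1%. The mean log2 ratio of mature to hairpin counts, with 0 set to 3 counts, was -2.10, with 1 library above 0 and 2 below (two-sided exact permutation test by sign flips, p = 0.5, adjusted p = 0.5). It was -0.70 without replicate 2, so that library sets most of its size, and -3.23 without replicate 1. Scaled to the total of its own type, the mature entry was below the hairpin entry in replicate 1 too, at 33.3 against 52.7 CPM.

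The passenger arms were rare. miR-107-5p had 2 mature counts in replicate 1 and 1 in replicate 3, and in replicate 2 it had 22 hairpin counts and no mature count. Both arms of mir-107 were thus without a mature count in replicate 2. In summed counts the 5p arm made up 3.51% (exact 95% interval 0.428% to 12.1%), 19.6% (12.7% to 28.2%) and 1.32% (0.0333% to 7.11%) of both arms in replicates 1, 2 and 3. Replicate 2 was above the others, and its interval did not overlap theirs.

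The mean log2 ratio of 3p to 5p was 4.35 ± 2.13 (SD, n = 3), above 0 in 3 of 3 libraries (two-sided exact permutation test by sign flips, p = 0.25, adjusted p = 0.3125). It was 5.51 without replicate 2 and 3.41 without replicate 3, which rest on 1 or 2 counts of the 5p arm in single libraries. miR-103-2-5p had 20 mature counts in replicate 2, or 19.9 CPM, and none in replicates 1 and 3, where the floor of 3 counts is 3.44 and 3.10 CPM. Since miR-103-1-5p differs from it at base 1 alone, the 20 reads cannot be assigned to the Pank2 intron with certainty. Replicate 2 thus held most reads of both 5p arms.

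The miR-15/16 group, whose members act on cell cycle genes, was compared because its seed is the family's own sequence read 1 base earlier. The motif AGCAGCA starts at base 1 of both 3p members of the family and at base 2, as the seed, of the miRNAs below, shown with the seed in capitals. Of the 1679 mature sequences searched in the sense strand, 12, or 0.715%, held AGCAGCA at base 1 or 2.
miR-16-5p: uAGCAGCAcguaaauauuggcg
miR-15a-5p: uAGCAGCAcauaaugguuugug
miR-15b-5p: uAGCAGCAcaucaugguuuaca
miR-322-5p: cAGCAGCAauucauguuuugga
miR-195a-5p: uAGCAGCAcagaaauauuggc
miR-497a-5p: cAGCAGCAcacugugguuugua

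The list for this group had 10 names, of which these 6 were counted. It was not the same set as the sequences found by the motif search. It held miR-1907, which the search did not find, and lacked miR-195b, which the search found and the sums here leave out. In mature counts these 6 summed to 10716, 14479 and 11379 in replicates 1, 2 and 3, against 177, 126 and 125 for miR-103-3p and miR-107-3p. The group was therefore 60.5, 115 and 91.0 times as abundant, a mean log2 ratio of the family to the group of -6.42 ± 0.47 (SD, n = 3; two-sided exact permutation test by sign flips, p = 0.25, adjusted p = 0.3125). In hairpin counts the gap was smaller, with the group at 6.88, 11.0 and 8.97 times the family. Replicate 2 had the widest gap in both types.

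Within the group, miR-16-5p led with 8244 ± 1114 CPM of mature counts (SD, n = 3), followed by miR-322-5p with 3392 ± 282 and miR-15b-5p with 808 ± 192. miR-15a-5p, with 205 ± 79.1 CPM, was above miR-103-3p in every library in mature counts, and below it in every library in hairpin counts (158 against 1081 CPM) and in summed counts (187 against 485 CPM). miR-195a-5p and miR-497a-5p, with 92.4 ± 18.5 and 81.9 ± 18.0 CPM, were below it in every library, also in hairpin and summed counts. The mature shares of the group were also higher than that of miR-103-3p, from 44.0% ± 19.0 for miR-195a-5p to 75.5% ± 0.667 for miR-16-5p (SD, n = 3 each). Of the 6, 1 had more hairpin than mature counts in every library and 3 had fewer. Over the 347 known miRNAs these shares were 33.4% and 39.5%, so the calls do not set the group apart. The mean mature shares of miR-15b-5p (44.1%), miR-195a-5p (44.0%) and miR-497a-5p (44.7%) were below the median of 51.7%.

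**Figure D3:**
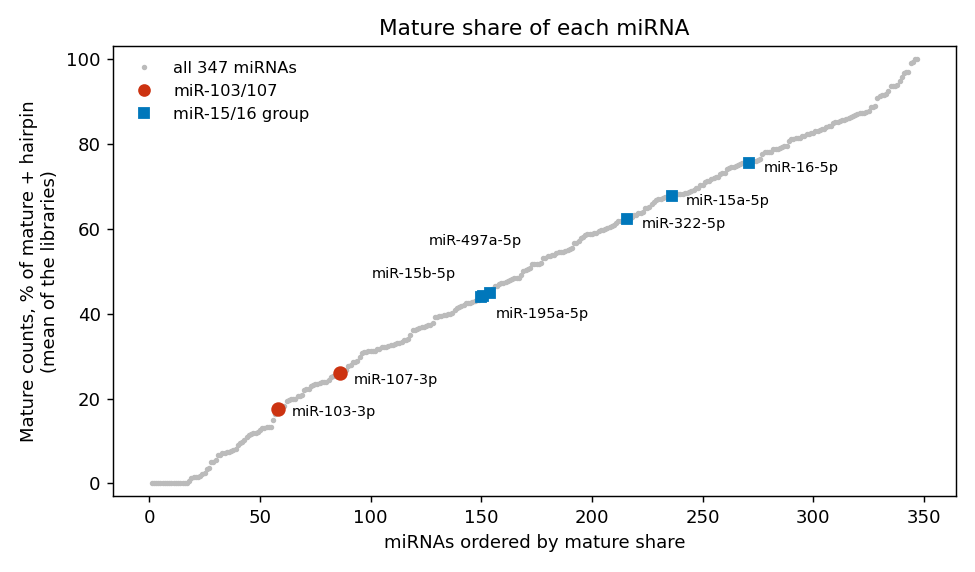
Mature counts as a percentage of mature plus hairpin counts, mean of the 3 libraries, for the 347 known miRNAs with at least 10 summed counts in every library (grey), ordered from lowest to highest. By these means, miR-103-3p (17.5%) and miR-107-3p (26.02%, red) lie below all 6 members of the miR-15/16 group (blue) and below the median of 51.7%. The mean of miR-107-3p covers 52.7%, 0% and 25.3% in replicates 1, 2 and 3. In replicate 1 its share was above that median and above miR-195a-5p (32.1%) and miR-497a-5p (47.2%).

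Other pairs of miRNAs that a single base separates were examined for the same instability. Of 16 such pairs with a sequence and a count, 13 had at least 10 summed counts of both in every library. miR-103-3p and miR-107-3p differ nearest to the 3′ end of these, at the 2nd base from it, ahead of miR-27a-3p and miR-27b-3p at the 3rd. The ratio of the pair in summed counts varied 2.01-fold between the highest and the lowest library. It varied less in 11 of the other 12 pairs, and the median over all of them was 1.37-fold. miR-10a-5p and miR-10b-5p varied most, 3.40-fold, and their difference is at the 12th base from the 3′ end. miR-196a-5p and miR-196b-5p varied least, 1.08-fold. In hairpin counts the ratio of miR-103-3p to miR-107-3p varied 4.28-fold, more than in the other 12 pairs tested. miR-107-3p, with 55 to 90 summed counts, had the fewest of all members of these pairs, and the part of counting error in this range was not tested.

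**Figure D4:**
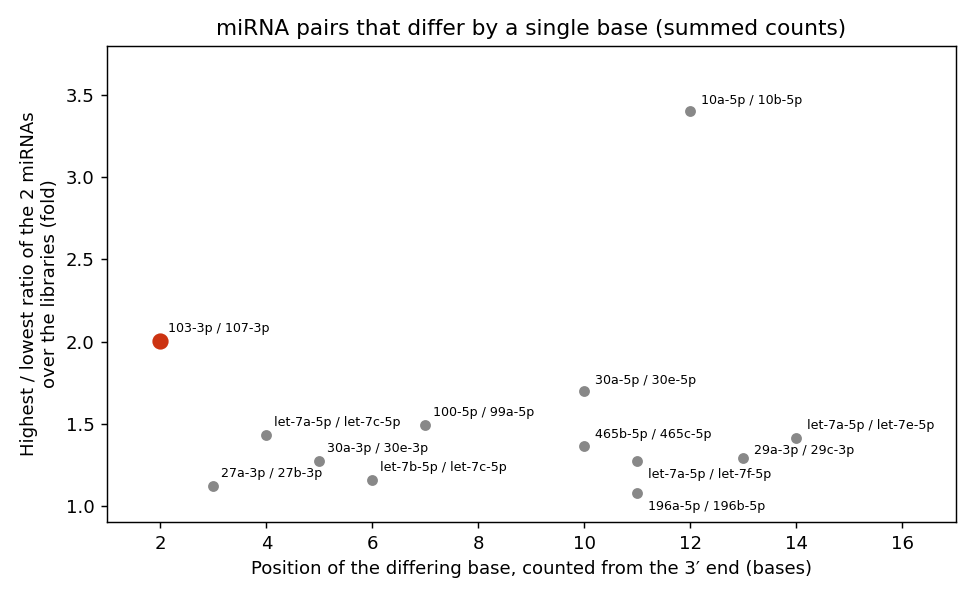
Highest over lowest ratio of 2 miRNAs across the 3 libraries (fold, summed counts) against the position of their differing base, counted from the 3′ end, for the 13 pairs that differ by 1 base and have at least 10 summed counts of each in every library. The pair of miR-103-3p and miR-107-3p (red) has its difference 2 bases from the end and a 2.01-fold range, exceeded by the miR-10a-5p and miR-10b-5p pair at 3.40-fold.

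A list of 25 miRNAs from introns of protein-coding genes, among them miR-33-5p of the sterol regulator Srebf2 and miR-26b-5p of the phosphatase gene Ctdsp1, placed the family among others of its kind. All 25 were counted, with a median of 325 CPM of mature counts and a range from 4.61 to 41856 CPM. Of these, 13 were above miR-103-3p in every library and 8 below. In hairpin counts 11 were above and 13 below, with a median of 651 CPM against 1081 for miR-103-3p, and in summed counts 12 were above and 12 below, with a median of 431 against 485 CPM. miR-103-3p thus lay below the list's median in mature counts and above it in the others. miR-33-5p, like the family linked to lipid metabolism, had 5.32 ± 2.16 CPM, and miR-26b-5p 1248 ± 87.8 CPM (SD, n = 3 each).

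miR-103-3p is often used as a reference in RT-qPCR, and its spread was set beside 11 other miRNAs used in that way. Its coefficient of variation over the libraries was 23.2% in mature counts, close to the references' median of 22.5%, and 6 of the 11 varied less. miR-191-5p had the smallest, 6.09%, and miR-484 the largest, 63.0%. In hairpin counts its coefficient was 22.04%, against a median of 13.3%, and 7 of the 11 varied less. miR-107-3p varied by 94.8% in mature counts, where all 11 references varied less, and by 47.7% in hairpin counts, where 8 did. In summed counts the values were 19.9% for miR-103-3p and 15.9% for miR-107-3p, against a median of 18.1%. The members were not matched to the references in abundance. All 11 references had a higher mean than miR-107-3p in each way of counting. Above miR-103-3p were 9 of them in mature, 6 in hairpin and 7 in summed counts. The mature coefficient of miR-107-3p rests on 29, 0 and 19 counts. A coefficient from 3 libraries is imprecise, and these scaled values include counting error.

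Over the 3 libraries, the mature miRNAs with log2 CPM profiles nearest to that of miR-103-3p, each centred on its own mean, were miR-382-5p, miR-182-5p, miR-138-5p, miR-28a-3p and miR-127-3p, at distances of 0.09 to 0.15 on the log2 scale among 271 compared. Having 0 mature counts in replicate 2, miR-107-3p had no such profile. In summed counts its nearest were miR-455-5p, miR-431-5p, miR-27b-3p, miR-425-5p and miR-324-5p, at 0.04 to 0.08 among 394, and none of these 5 was among the nearest to miR-103-3p. With 3 points per profile, these distances are a description only.

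As a check of the tissue, the gonadal miR-202-5p and miR-202-3p summed to 21203 to 29797 CPM of mature counts, while the neural miR-124-3p had no mature count and the liver's miR-122-5p 1 count in all. The 3 erythroid markers summed to 597, 356 and 442 CPM in replicates 1, 2 and 3, highest in the library in which miR-103-3p was highest. The 3 leukocyte markers summed to 50.5, 4.97 and 25.9 CPM. Both sums had the order of libraries of the mature counts of miR-107-3p. Its hairpin entry (52.7, 147 and 97.0 CPM) and its summed counts (40.3, 55.6 and 48.6 CPM) had the reverse order. Not every marker had the order of the mature counts. In the erythroid list miR-451a, which made up most of the sum, and miR-486a-5p had this order. miR-144-3p did not, with 7, 6 and 4 counts. In the leukocyte list miR-223-3p alone had it, with 33, 1 and 21 counts. There miR-142a-3p had 10, 2 and 1 counts, and miR-142a-5p 1, 2 and 3. The part of these blood markers in either result was not tested. The muscle markers miR-1a-3p and miR-133a-3p had been listed, like the liver and neural ones, for a tissue that should be absent. They were present, however, and summed to 559 to 894 CPM of mature counts. Each was above miR-103-3p in every library in mature counts, so this part of the check was not met. The source of these reads was not tested.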

How the data were processed

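Small RNA of PND7 testis EVs was sequenced on BGISEQ-500 in 3 libraries of a single condition. The authors removed low-quality reads, mapped clean reads with Bowtie2 and cmsearch (versions not given in the sources used here; the submitters' processing notes name mm10), and gave each read to a single class, miRBase first. They deposited raw counts per small RNA and, per class, counts and the percent of clean reads. Another deposited column of other values, headed as molecular identifiers, equalled CPM of clean reads on rows naming a small RNA and was not used. How reads with several matches and mismatches were counted is not given in the sources used here, so paralogs could have been split.

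Mature and hairpin counts were scaled to a total of 1000000 of their type in each library (CPM), and summed counts to the same total of both. An identifier without a row was taken as 0. Exact Clopper-Pearson 95% intervals and the floor of 3 counts for a 0 cover counting error only, since PCR copies were not told apart. Within-library log2 ratios underwent a two-sided exact permutation test by sign flips, for which the libraries are the replicates. The arm ratio was computed on summed counts, because no 5p arm had mature counts in every library. Members, lists and tests were chosen with earlier results of these data known. Named were all member entries, neighbours in rank, the 5 nearest profiles, pairs that differ by 1 base and the fixed lists. Summed profiles and the comparison of mature shares over all miRNAs were added after the data were seen. Alternatives changed denominators, scaling, types, pseudocounts, filters and replicates. Sequences came from RefSeq, and 442 of 604 mature entries had one. The functions were tested on simulated data. Tables were computed in Python 3.11.15 (SciPy 1.17.1, numpy 2.4.6, pandas 2.3.3) and drawn with matplotlib 3.10.9. A predicted miRNA whose running number resembles these names is no member.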

Additional observations from a re-analysis of the deposited data

Results flagged for a closer look

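The Rfam entry for precursors of miR-103 and miR-107, which is of the precursor type and outside the members, had 287, 215 and 274 counts in replicates 1, 2 and 3, above the 3 counts that a 0 allows. It held 1884 ± 540 CPM of the precursor counts (SD, n = 3), ranked 39th of 259 precursor entries and amounted to 0.331, 0.271 and 0.353 of the family's 867, 793 and 776 mature plus hairpin counts. Its reads cannot be assigned to miR-103 or miR-107.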

How the results depend on the processing

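Of 59 alternatives for 10 results, 9 moved a level, rank or share by more than the SD over the libraries. None reversed the sign of a log2 ratio, but levels, ranks and shares have no direction to reverse. Leaving out a replicate also cannot reverse a mean ratio that has the same sign in every library. Scaled to clean reads, miR-103-3p had 4.80 and miR-107-3p 0.603 CPM, and the family's share of 0.0160% of the mature counts became 0.000570%, because the denominator is larger. With mature and hairpin entries summed, the levels were 485 and 48.2 CPM, the rank of miR-103-3p was 111 in place of 158, and the family's share was 0.0543%. It was 0.119% among hairpin entries. Leaving out each replicate in turn gave ranks of 159 to 166 for miR-103-3p, levels of 117 to 148 CPM for it and 9.83 to 26.5 CPM for miR-107-3p, whose level depends most on which library is left out. The log2 ratio of miR-103-3p to miR-107-3p ranged from 2.42 to 3.94, the former without replicate 2. No paired comparison of groups was possible because there is a single group, and the only pairing was of counts within a library. miR-107-3p has no rank under the filter of 10 counts in every library, and the arm ratio has no value for mature or hairpin entries alone. Low counts of miR-107-3p and of the 5p arms limit what these libraries can show.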
